A study of Mus musculus with 8 samples.

Results

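The genes described here encode the non-collagen part of the extracellular matrix: 48 genes for laminins and other basement membrane proteins, fibronectin and the matricellular proteins, small leucine-rich proteoglycans, and the elastic fibre and its microfibrils. They were listed by family name with earlier results of these data known, and 47 of the 48 were measured among 22180 genes in all (Fbn1 was not analysed here). Of the 47, 18 belong to the basement membrane and 29 to the interstitial matrix. In the Grb2 UB-cKO kidney, 32 of the 47 (68.1%) were higher than in the control and 4 (8.51%) were lower. Over all genes 13.7% were higher and 14.3% were lower. All 4 lower genes, Lama1, Lamb1, Lamc1 and Frem2, encode basement membrane proteins, whereas no interstitial gene fell.

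RNA came from mouse E14.5 kidneys, in 4 embryos with the genotype Grb2 UB-cKO and 4 embryos labelled wild-type control. Grb2 is an adaptor protein that couples receptor tyrosine kinases to Ras signalling, and the ureteric bud is the epithelium that branches into the collecting ducts. Both kidneys of an embryo were pooled into 1 sample, and all 8 embryos came from 1 litter, so the replicates are separate animals. The Cre driver, and whether the controls carried a floxed allele or Cre, were not given in the sources used here. Replicates are numbered in accession order, so the numbers only name the embryos. Whole kidneys were measured, so fewer cells of a type and less RNA per cell cannot be told apart.

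Basement membranes are thin sheets under epithelia and around vessels, built on a laminin network and a collagen IV network that nidogens and the proteoglycan perlecan link together. Laminins are trimers of an alpha, a beta and a gamma chain, and kidney epithelia exchange chains as they mature, with Lamb2 replacing Lamb1 in the glomerular basement membrane. The interstitial matrix between epithelia is made largely by stromal cells and holds fibronectin, collagen fibrils dressed with small proteoglycans, and elastic fibres in which elastin is laid on microfibrils of fibrillin. Latent TGF-beta binding proteins tether that growth factor to the microfibrils.

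The values are log2 probe-set levels, and a difference is the mean of the 4 Grb2 UB-cKO embryos minus the mean of the 4 controls on that scale. A gene passed the test at a Benjamini-Hochberg adjusted p under 0.05 in limma, adjusted over all 22180 genes. Across all genes 6227 passed, 3048 higher and 3179 lower, with a median difference of 0.01. The targeted gene Grb2 read 8.68, 8.65, 8.61 and 8.66 in the controls and 8.36, 8.17, 8.22 and 8.06 in the Grb2 UB-cKO embryos, a difference of -0.45 ± 0.07 (SE; limma adjusted p = 0.0017; exact two-sided permutation p = 0.0286, the smallest that 70 assignments allow). The groups also differed in sex. Y-linked transcripts averaged 9.94 to 10.10 in the 4 Grb2 UB-cKO embryos and 9.94 in control replicate 3, against 4.09 to 4.24 in the other 3 controls, and Xist was high in those 3 controls alone (12.22 to 12.79 against 4.95 to 6.03 in the rest). A fit that includes each embryo's average Y-linked level, called the Y-linked covariate from here on, therefore rests on control replicate 3 for its estimate of genotype.

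Whole-kidney markers of cell types also moved with genotype. For comparison, 13.7% of all genes passed as higher and 14.3% as lower. The mean level of stromal markers was 10.2 to 10.3 in the controls and 10.8 to 10.9 in Grb2 UB-cKO, with 7 of 9 genes higher. Ureteric markers averaged 9.35 to 9.43 against 8.41 to 8.75, with 7 of 11 lower, and nephron progenitor markers 10.2 to 10.4 against 8.92 to 9.52, with 6 of 8 lower. Podocyte markers averaged 8.78 to 8.95 against 9.26 to 9.92, with 5 of 5 higher, and endothelial markers 9.75 to 9.83 against 10.1 to 10.3, with 7 of 10 higher. Macrophage markers averaged 7.43 to 7.62 against 8.32 to 8.71, with 6 of 8 higher. Higher levels also passed in 4 of 4 erythroid, 3 of 4 mesothelial, 1 of 6 smooth muscle and 1 of 3 neural markers. With the Y-linked covariate fewer of these calls remained: 5 stromal, 4 ureteric, 3 nephron progenitor, 4 macrophage, 1 erythroid and 1 neural, and 0 podocyte, endothelial, mesothelial and smooth muscle. Arrays give no zero, so no marker could be called absent, and the part of these markers in the matrix results was not tested.

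**Figure D1:**
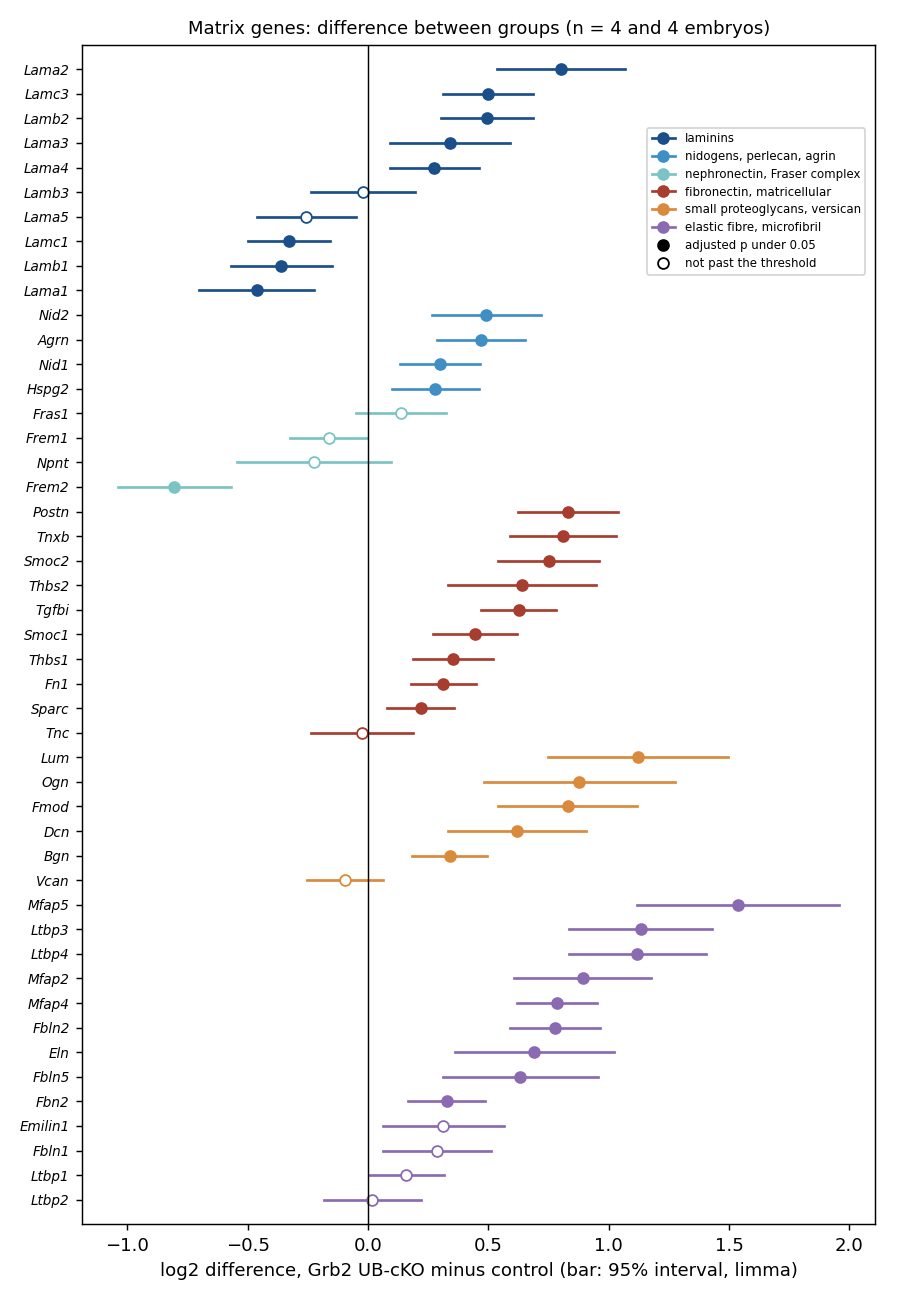
Log2 difference (Grb2 UB-cKO minus control, x axis) of the 47 measured matrix genes (rows, grouped and coloured by role), with points at the estimate, bars for the limma 95% interval, and filled points past the adjusted p threshold of 0.05. The 4 filled points left of zero are Lama1, Lamb1, Lamc1 and Frem2, and the filled points reach 1.54 at Mfap5.

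Basement membrane genes moved both ways, and interstitial genes that passed moved one way. Of the 18 basement membrane genes 9 were higher, 4 were lower and 5 did not pass, with a median difference of 0.21. Of the 29 interstitial genes 23 were higher, 0 were lower and 6 did not pass, with a median of 0.63. Over all genes 28.1% passed the test, 13.7% higher and 14.3% lower. Groups that did not overlap were found for 34 members on the higher side and 5 on the lower side, against 15.2% and 16% of all genes (31.2% in either direction). With a minimum of 1.5-fold added, 17 interstitial genes were higher, and of the basement membrane genes Lama2 was higher and Frem2 lower, while 8.07% of all genes met that rule (4.79% higher and 3.28% lower).

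The contrast between the classes was visible in each embryo. The mean of the 29 interstitial genes, set to zero at the control mean, was -0.02, -0.02, 0.10 and -0.06 in the controls and 0.55, 0.47, 0.64 and 0.73 in the Grb2 UB-cKO embryos. The mean of the 18 basement membrane genes was 0.03, 0.02, 0.01 and -0.05 in the controls and -0.05, 0.02, 0.16 and 0.20 in Grb2 UB-cKO. Thus the interstitial means of the groups lay far apart, while the basement membrane mean of Grb2 UB-cKO replicate 2 lay within the control range. Replicate 1 lay just under the lowest control (-0.054 against -0.049), and replicates 3 and 4 lay above the controls. Basement membrane genes that rose and genes that fell enter the same mean. The interstitial mean minus the basement membrane mean was 0.61, 0.45, 0.48 and 0.53 in Grb2 UB-cKO and -0.05 to 0.10 in the controls, with no overlap. This contrast was not tested, since the members of both classes were chosen with results of these data known.

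**Figure D2:**
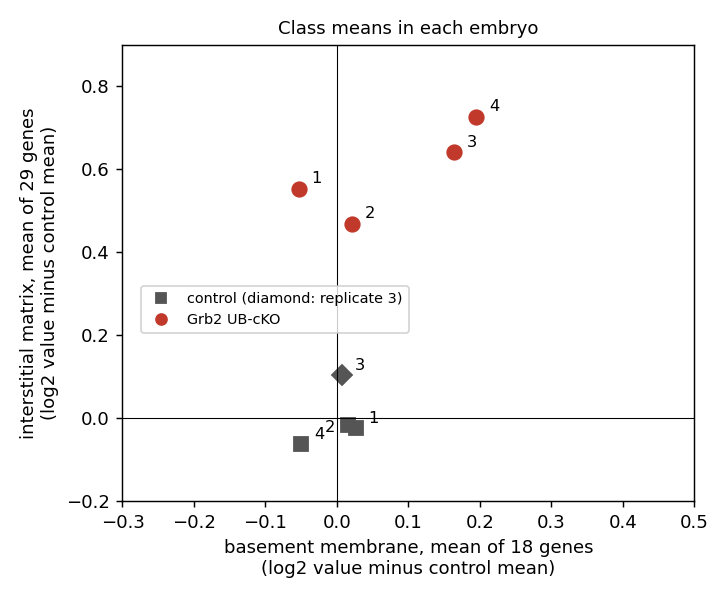
Mean of the 18 basement membrane genes (x axis) against the mean of the 29 interstitial genes (y axis) in each embryo, both as log2 value minus control mean, with squares or a diamond for controls, circles for Grb2 UB-cKO, and replicate numbers beside the points. The Grb2 UB-cKO embryos lie at 0.47 to 0.73 on the interstitial axis and at -0.05 to 0.20 on the basement membrane axis.

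Laminin chains moved in opposite directions. Of the 10 laminin genes measured, Lama2, Lama3, Lama4, Lamb2 and Lamc3 were higher, Lama1, Lamb1 and Lamc1 were lower, and Lama5 and Lamb3 did not pass, with a median difference of 0.13. Lama2, the alpha chain best known from muscle and also made by mesenchyme, read 9.52, 9.35, 9.08 and 9.01 in the controls and 9.97, 10.01, 9.96 and 10.23 in Grb2 UB-cKO. The lowest Grb2 UB-cKO embryo was above the highest control, and the difference was 0.80 ± 0.12 (SE), or 1.74-fold (adjusted p = 0.00093). It passed also with the Y-linked covariate (0.97, adjusted p = 0.0251).

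Lamb2, the beta chain of mature glomerular and neuromuscular basement membranes, read 8.78, 8.86, 9.11 and 8.94 in the controls and 9.40, 9.30, 9.50 and 9.46 in Grb2 UB-cKO, a difference of 0.49 ± 0.09 (SE; adjusted p = 0.00221). Control replicate 3 was the highest control for this gene, and with the Y-linked covariate the difference was 0.30 (adjusted p = 0.193). Lamc3, a gamma chain of vessels and nerves, read 7.59, 7.45, 7.65 and 7.73 against 8.02, 8.004, 8.17 and 8.22, a difference of 0.50 ± 0.08 (SE; adjusted p = 0.00183). The groups did not overlap for either gene, and with the covariate Lamc3 differed by 0.45 with a wider SE of 0.14 and did not pass (adjusted p = 0.104).

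The chains that fell are those of the trimer of early epithelial basement membranes. Lamc1, the gamma chain shared by most laminins, read 11.61, 11.57, 11.47 and 11.40 in the controls and 11.08, 11.14, 11.24 and 11.27 in Grb2 UB-cKO; it fell by 0.33 on the log2 scale (SE 0.08, adjusted p = 0.00923). Lama1, its alpha partner in that trimer, read 10.35, 10.36, 10.25 and 10.18 against 9.62, 9.65, 10.05 and 9.97 and fell by 0.46 (SE 0.11, adjusted p = 0.00955). Replicates 1 and 2 of Grb2 UB-cKO were the lowest for Lama1, and replicates 3 and 4 lay just under the controls. Lamb1, the beta partner, read 10.96, 11.03, 10.85 and 10.67 against 10.44, 10.42, 10.64 and 10.58 and fell by 0.36 (SE 0.09, adjusted p = 0.0163), with the lowest control just above the highest Grb2 UB-cKO embryo. Without control replicate 2 the Lamb1 difference was -0.31 (adjusted p = 0.0521). With the Y-linked covariate all 3 kept their sign but not their call: -0.29 for Lamc1, -0.43 for Lama1 and -0.33 for Lamb1 (adjusted p = 0.243, 0.213 and 0.272). The values of Lama1 and Lamb1 are given because of their direction, and were chosen after they were seen.

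Of the remaining laminin chains, Lama3, an epithelial alpha chain, rose by 0.34 (adjusted p = 0.0444) with overlapping groups. Lama4, an alpha chain of vessel walls, rose by 0.28 (adjusted p = 0.0329). These calls were marginal: leaving out 1 embryo at a time, Lama3 passed in 2 of 8 fits (without control or Grb2 UB-cKO replicate 1) and Lama4 in 3 of 8 (the same and without Grb2 UB-cKO replicate 2), with adjusted p up to 0.108 and 0.0809, and with the Y-linked covariate neither passed although the differences, 0.44 and 0.33, were no smaller (SE 0.18 and 0.14; adjusted p = 0.212 and 0.220). Lama5, the alpha chain of most mature kidney epithelia, read 9.15, 9.15, 9.25 and 9.16 in the controls and 8.71, 8.85, 9.01 and 9.11 in Grb2 UB-cKO; its groups did not overlap, but the difference of -0.26 did not pass (adjusted p = 0.0633), though it did without Grb2 UB-cKO replicate 4 (-0.32). Lamb3, the beta chain of the epidermal laminin, differed by -0.02 (adjusted p = 0.916). Its probe set was dim, with means of 6.26 in the controls and 6.24 in Grb2 UB-cKO, under the array medians of 6.61 to 6.72.

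Pairing chains of the same kind within each embryo showed the opposite movement in every Grb2 UB-cKO embryo. The log2 ratio of Lama2 to Lama1, minus its control mean, was 0.21, 0.03, -0.13 and -0.12 in the controls and 1.39, 1.40, 0.95 and 1.31 in Grb2 UB-cKO. For Lamb2 to Lamb1 it was -0.22, -0.21, 0.22 and 0.22 against 0.92, 0.84, 0.82 and 0.84, and for Lamc3 to Lamc1 -0.11, -0.22, 0.09 and 0.24 against 0.84, 0.77, 0.83 and 0.86. All 3 ratios separated the groups without overlap, by means of 1.26, 0.85 and 0.83. That separation was fixed by the single genes, whose groups already lay apart in opposite directions, so the ratios add no separate evidence. The pairs were chosen with the single-gene values known, so no test was made. In the same embryos ureteric and nephron progenitor markers were lower. Stromal, podocyte, endothelial, macrophage, erythroid and mesothelial markers were higher, and the part of any marker in these ratios was not tested.

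Proximal promoters of 5 members are printed to set the sequences of genes that fell (Frem2, Lamb1) beside those of genes that rose (Lama2, Lamb2, Ltbp3); they were chosen after the values were seen. Each runs from 250 bases before to 50 bases after a gene's start in RefSeq (GRCm38.p6), 5′ to 3′ on the gene's strand. Capitals mark matches on either strand to 5 motifs. They are the GC box with the letters GGGCGG, the TATA box with the letters TATAAA, the NF-Y box with the letters CCAAT, the AP-1 element with the letters TGANTCA, which is its own reverse complement, and the ETS core with the letters CCGGAA. No match overlaps another. The positions are chr3:53657306-53657605 for Frem2 (minus strand), chr12:31265043-31265342 for Lamb1 (plus), chr10:27616893-27617192 for Lama2 (minus), chr9:108479612-108479911 for Lamb2 (plus) and chr19:5740650-5740949 for Ltbp3 (plus).
Frem2: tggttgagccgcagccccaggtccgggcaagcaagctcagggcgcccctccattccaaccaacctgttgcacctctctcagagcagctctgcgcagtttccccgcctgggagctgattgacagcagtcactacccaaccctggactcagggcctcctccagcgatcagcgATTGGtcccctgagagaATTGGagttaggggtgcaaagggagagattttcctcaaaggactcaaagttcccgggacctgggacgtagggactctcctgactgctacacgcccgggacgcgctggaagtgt
Lamb1: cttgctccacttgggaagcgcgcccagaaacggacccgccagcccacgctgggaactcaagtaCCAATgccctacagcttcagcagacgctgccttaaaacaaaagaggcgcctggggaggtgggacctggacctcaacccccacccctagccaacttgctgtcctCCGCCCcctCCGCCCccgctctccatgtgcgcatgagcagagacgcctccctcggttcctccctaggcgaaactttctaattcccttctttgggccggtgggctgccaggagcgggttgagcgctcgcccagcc
Lama2: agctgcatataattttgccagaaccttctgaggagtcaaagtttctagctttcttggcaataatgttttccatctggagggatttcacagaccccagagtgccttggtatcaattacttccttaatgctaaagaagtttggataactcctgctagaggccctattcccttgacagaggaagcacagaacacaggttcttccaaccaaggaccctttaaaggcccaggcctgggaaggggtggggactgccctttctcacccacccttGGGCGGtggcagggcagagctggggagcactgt
Lamb2: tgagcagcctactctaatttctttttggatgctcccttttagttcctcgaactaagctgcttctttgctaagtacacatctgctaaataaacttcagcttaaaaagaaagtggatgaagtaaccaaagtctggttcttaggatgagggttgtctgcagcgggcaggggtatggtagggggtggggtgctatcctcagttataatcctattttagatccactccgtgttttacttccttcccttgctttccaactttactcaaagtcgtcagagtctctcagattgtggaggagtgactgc
Ltbp3: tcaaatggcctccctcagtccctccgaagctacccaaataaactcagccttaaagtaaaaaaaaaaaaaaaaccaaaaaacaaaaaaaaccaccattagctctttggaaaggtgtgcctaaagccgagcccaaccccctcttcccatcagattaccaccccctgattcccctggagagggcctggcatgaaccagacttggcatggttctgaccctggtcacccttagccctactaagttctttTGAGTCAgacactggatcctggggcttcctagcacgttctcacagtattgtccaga
Frem2 holds 2 NF-Y boxes, Lamb1 holds 2 GC boxes and 1 NF-Y box, Lama2 holds 1 GC box, Lamb2 holds no match, and Ltbp3 holds 1 AP-1 element. Promoters were matched for 30 of the 47 members (42 promoters). GC boxes were found in 21 of these 42 promoters (50%), against 35.7% of 32851 promoters of the same length. The member promoters were also richer in G and C, with a median of 59.8% against 52.7% for all promoters. Some members entered with more than 1 promoter, in part overlapping. The part of either in the GC box share was not tested. An NF-Y box was found in 13 (31.0%, against 37.4% of all promoters) and a TATA box in 5 (11.9%, against 13.6%). An ETS core was found in 3 (7.14%, against 14.9%) and an AP-1 element in 2 (4.76%, against 7.81%). These are matches of letters in a short window.

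The genes for the nidogens, perlecan and agrin all rose. Nid2, which with Nid1 joins laminin to collagen IV, read 10.25, 10.34, 10.40 and 10.40 in the controls and 10.55, 10.90, 10.89 and 11.02 in Grb2 UB-cKO, a difference of 0.49 ± 0.10 (SE; adjusted p = 0.00535). Nid1 read 11.63, 11.68, 11.65 and 11.53 against 11.86, 11.79, 12.01 and 12.02, a difference of 0.30 ± 0.08 (SE; adjusted p = 0.0141), and its other probe set differed by 0.46. Both nidogens were higher in every Grb2 UB-cKO embryo than in any control. Agrn, the heparan sulphate proteoglycan agrin of the glomerular basement membrane, read 10.41, 10.43, 10.61 and 10.62 against 10.92, 10.90, 11.01 and 11.12, a difference of 0.47 ± 0.08 (SE; adjusted p = 0.00211). Hspg2, which encodes perlecan, read 10.72, 10.71, 10.80 and 10.81 against 10.83, 11.09, 11.09 and 11.13, a difference of 0.28 ± 0.08 (SE; adjusted p = 0.0263). Replicate 1 was the low Grb2 UB-cKO embryo for Hspg2 and lay only just above the controls. The Hspg2 call held in 3 of 8 fits that left out 1 embryo, those without control replicate 3 or 4 or Grb2 UB-cKO replicate 1 (adjusted p up to 0.0749 in the others). None of the 4 genes passed with the Y-linked covariate, where the differences were 0.43 for Nid2, 0.27 for Nid1, 0.38 for Agrn and 0.24 for Hspg2 (adjusted p = 0.184, 0.268, 0.139 and 0.373). The median of the 4 genes was 0.38. Podocyte, endothelial, stromal, macrophage, erythroid and mesothelial markers were also higher in these kidneys, and their part in the rise was not tested.

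The Fraser complex and nephronectin gave 1 call among 4 genes. Frem2, a membrane-anchored protein that assembles with Fras1 and Frem1, read 10.59, 10.72, 10.63 and 10.66 in the controls and 9.55, 9.83, 10.03 and 9.98 in Grb2 UB-cKO. The controls were tightly grouped and every Grb2 UB-cKO embryo was lower, by 1.75-fold in the mean (-0.80 ± 0.10, SE; adjusted p = 0.000501). It is the only member that fell and passed also with the Y-linked covariate (-0.79, adjusted p = 0.0381). Its partners did not pass: Fras1 read 10.74, 10.71, 10.70 and 10.57 against 10.61, 10.84, 10.90 and 10.91 (0.14, adjusted p = 0.273). Frem1 read 11.17, 11.12, 11.06 and 10.96 against 10.82, 10.97, 10.93 and 10.95 (-0.16, adjusted p = 0.123). Npnt, the ureteric bud's ligand for the integrin that holds Itga8, read 11.06, 11.21, 11.20 and 11.18 against 10.57, 10.75, 11.23 and 11.20. The Grb2 UB-cKO embryos split for Npnt, with replicates 1 and 2 below every control and replicates 3 and 4 at the control level (-0.22 ± 0.14, SE; adjusted p = 0.296). The same replicates 1 and 2 were the lowest for Frem2, Lama1 and Lama5. Mean levels of ureteric and nephron progenitor markers were lower in the Grb2 UB-cKO kidneys. Single ureteric markers split both ways among the replicates. Calb1 read 8.75, 8.55, 7.40 and 7.18 in Grb2 UB-cKO replicates 1 to 4, and Cdh1 read 10.28, 9.94, 10.53 and 10.42. The part of these markers in the split was not tested.

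**Figure D3:**
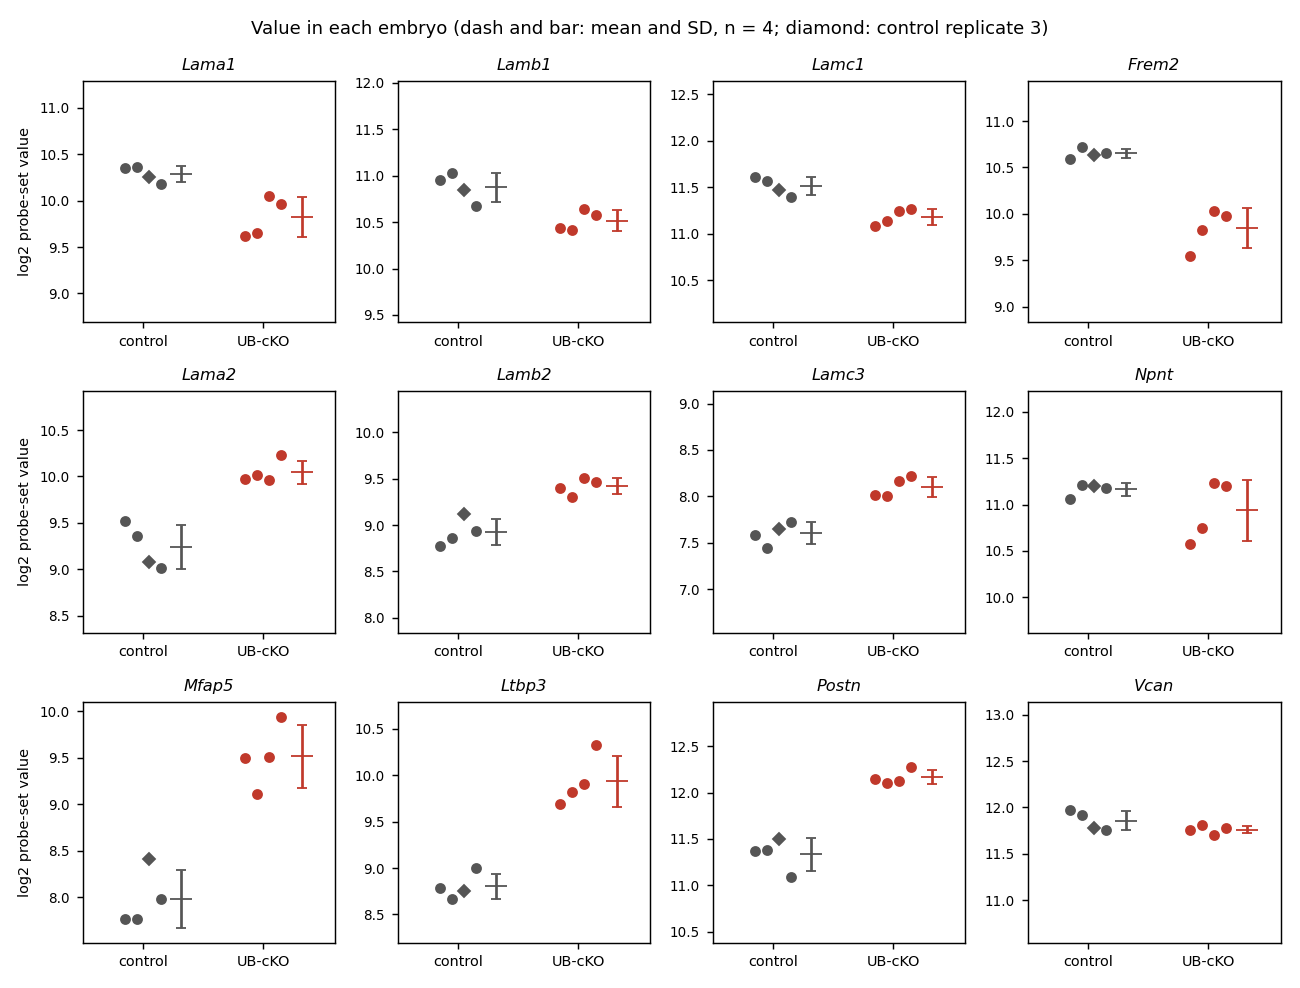
Log2 probe-set values (y axis, each panel centred on its own values, with the same span in all panels) of 12 matrix genes in the 4 control and 4 Grb2 UB-cKO embryos. A diamond marks control replicate 3, and a dash and bar mark the mean and SD. Lama1, Lamb1, Lamc1 and Frem2 are lower and Lama2, Lamb2, Lamc3, Mfap5, Ltbp3 and Postn higher with no overlap, while Npnt and Vcan overlap.

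Fibronectin and the matricellular genes rose almost as a block. Of these 10 genes 9 were higher and 1, Tnc, did not pass, with a median difference of 0.54. Postn, the TGF-beta target periostin, which links fibronectin, tenascin and collagen, read 11.37, 11.38, 11.50 and 11.09 in the controls and 12.15, 12.11, 12.13 and 12.27 in Grb2 UB-cKO. The Grb2 UB-cKO embryos lay within a narrow band above the controls, and the difference was 0.83 ± 0.09 (SE; adjusted p = 0.000249). Tgfbi, a relative of periostin in the fasciclin family, read 11.98, 11.92, 12.001 and 12.05 against 12.57, 12.56, 12.57 and 12.75, a difference of 0.63 ± 0.07 (SE; adjusted p = 0.00024). Tnxb, the tenascin of loose connective tissue, read 6.36, 6.43, 6.58 and 6.23 against 7.21, 7.01, 7.35 and 7.27, a difference of 0.81 ± 0.10 (SE; adjusted p = 0.000363). Smoc2, a calcium-binding modular protein of the SPARC family, read 9.45, 9.55, 9.63 and 9.40 against 10.23, 10.12, 10.19 and 10.50, a difference of 0.75 ± 0.09 (SE; adjusted p = 0.000426). Groups did not overlap for any of these 4 genes, and each passed with the Y-linked covariate (0.66 for Postn, 0.61 for Tgfbi, 0.63 for Tnxb and 0.62 for Smoc2; adjusted p = 0.0323, 0.0254, 0.0446 and 0.0484).

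The remaining matricellular genes rose less or lost their call with the covariate. Smoc1, a paralogue of Smoc2, rose by 0.45 (adjusted p = 0.00224) and passed with the covariate (0.56, adjusted p = 0.0367). Thbs2 and Thbs1, thrombospondins that bind matrix proteases and growth factors, rose by 0.64 and 0.35 (adjusted p = 0.0066 and 0.00617). With the covariate Thbs2 differed by 0.34 and Thbs1 by 0.32 (adjusted p = 0.368 and 0.191). Fn1, the fibronectin gene, rose by 0.31 (adjusted p = 0.00396; 0.33 and 0.106 with the covariate). Sparc, a collagen-binding glycoprotein, rose by 0.22 (adjusted p = 0.0253); its call held in 3 of 8 fits that left out 1 embryo, those without control replicate 3 or Grb2 UB-cKO replicate 2 or 4 (adjusted p up to 0.0712 in the others), and was absent with the covariate (0.15, adjusted p = 0.463). Tnc, the tenascin of remodelling mesenchyme, read 9.58, 9.46, 9.72 and 9.64 against 9.44, 9.57, 9.48 and 9.80, with overlapping groups (-0.03, adjusted p = 0.885). The tenascin pair therefore had Tnxb past the test and Tnc not; the difference between them was not tested.

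The small leucine-rich proteoglycans of the set bind collagen and set fibril width. With versican they form a group of 6 genes, of which all 5 small proteoglycans rose and versican did not pass, with a median of 0.72. Lum, which encodes lumican, read 9.08, 9.14, 9.03 and 8.46 in the controls and 10.11, 9.87, 10.37 and 9.84 in Grb2 UB-cKO, a difference of 1.12 ± 0.17 (SE; adjusted p = 0.000966), or 2.18-fold. Fmod, fibromodulin, read 8.10, 8.03, 8.23 and 8.26 against 8.87, 8.65, 9.14 and 9.28 (0.83 ± 0.13, SE; adjusted p = 0.00122), and its other probe set differed by 0.41. Ogn, osteoglycin, read 9.35, 9.28, 9.52 and 8.93 against 9.99, 9.76, 10.28 and 10.57 (0.88 ± 0.18, SE; adjusted p = 0.00478). Control replicate 4 was the lowest control for Lum, Ogn and Dcn, and every Grb2 UB-cKO embryo was above every control for all 3. Bgn, biglycan, read 12.85, 12.87, 12.84 and 12.78 against 13.11, 13.07, 13.25 and 13.26 (0.34 ± 0.07, SE; adjusted p = 0.00516), and its other probe set differed by 0.53. Dcn, decorin, rose by 0.62 (adjusted p = 0.00552). No gene of this group passed with the Y-linked covariate, though all 5 kept their sign: 1.03 for Lum, 0.75 for Fmod, 0.63 for Ogn, 0.33 for Bgn and 0.41 for Dcn (adjusted p = 0.0672, 0.0791, 0.237, 0.149 and 0.277). Vcan, the large hyaluronan-binding proteoglycan versican of early mesenchyme, read 11.98, 11.92, 11.78 and 11.76 against 11.76, 11.81, 11.71 and 11.78, with overlapping groups (-0.10, adjusted p = 0.38).

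The elastic fibre and microfibril group held the members that rose most, Mfap5 and Ltbp3. Of 13 genes measured 9 were higher and 4 did not pass, with a median of 0.69. Mfap4, a microfibril-associated glycoprotein that binds elastin and fibrillin, had the smallest p of all members. It read 9.96, 9.99, 10.04 and 10.20 in the controls and 10.81, 10.77, 10.81 and 10.93 in Grb2 UB-cKO, a difference of 0.79 ± 0.08 (SE; adjusted p = 0.00013; 0.79 with the Y-linked covariate, adjusted p = 0.0158). Fbln2, a fibulin that binds fibronectin, fibrillin and laminin, read 8.43, 8.33, 8.47 and 8.16 against 9.22, 9.12, 9.10 and 9.06, a difference of 0.78 ± 0.08 (SE; adjusted p = 0.000219; 0.65 and 0.029 with the covariate). Both genes showed little spread among the Grb2 UB-cKO embryos and no overlap between the groups.

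Latent TGF-beta binding proteins did not move alike. Ltbp4, which also supports elastic fibre assembly, read 9.09, 9.18, 9.34 and 9.27 in the controls and 10.39, 9.95, 10.42 and 10.59 in Grb2 UB-cKO, a 2.17-fold rise (1.12 ± 0.13, SE; adjusted p = 0.000268). Ltbp3 read 8.79, 8.67, 8.76 and 8.996 against 9.69, 9.81, 9.91 and 10.32, a 2.19-fold rise (1.13 ± 0.13, SE; adjusted p = 0.000301). With the Y-linked covariate both passed, at 1.0 and 1.17 (adjusted p = 0.0316 and 0.024). Ltbp1 differed by 0.16 with no overlap between the groups but did not pass (adjusted p = 0.127). Ltbp2, which binds fibrillin but not latent TGF-beta, differed by 0.02 (adjusted p = 0.911). It was dim, with means of 6.39 in the controls and 6.41 in Grb2 UB-cKO, under the array medians of 6.61 to 6.72. Ltbp3 and Ltbp4 were thus past the test and Ltbp1 and Ltbp2 were not; the difference between the pairs was not tested.

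Mfap5, a microfibril-associated glycoprotein with a paralogue in Mfap2, had the greatest difference of all members and is described for that, having been chosen after its value was seen. It read 7.76, 7.76, 8.41 and 7.98 in the controls and 9.50, 9.11, 9.51 and 9.94 in Grb2 UB-cKO, a difference of 1.54 ± 0.19 (SE; adjusted p = 0.000373), or 2.90-fold. Control replicate 3 was the highest control, and with the covariate the difference was 1.09 (adjusted p = 0.0414). Mfap2 rose by 0.89 (adjusted p = 0.000782; 0.66 and 0.0818 with the covariate). Eln, elastin itself, rose by 0.69 (adjusted p = 0.00626; 0.51 and 0.259 with the covariate), and Fbln5, which places elastin on microfibrils, by 0.63 (adjusted p = 0.00857; 0.46 and 0.299). Fbn2, the fibrillin of developing tissue, rose by 0.33 (adjusted p = 0.00706; 0.33 and 0.153 with the covariate). Fbln1 and Emilin1, which also bind elastic fibres, differed by 0.29 and 0.31 without passing (adjusted p = 0.06 and 0.0661). Fbln1 passed without control replicate 3 or 4 (up to 0.35) and Emilin1 without Grb2 UB-cKO replicate 2 (0.37). Stromal, podocyte, endothelial, macrophage, erythroid and mesothelial markers were higher in the same Grb2 UB-cKO kidneys. Their part in the rise of the elastic fibre, matricellular and small proteoglycan genes was not tested.

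**Figure D4:**
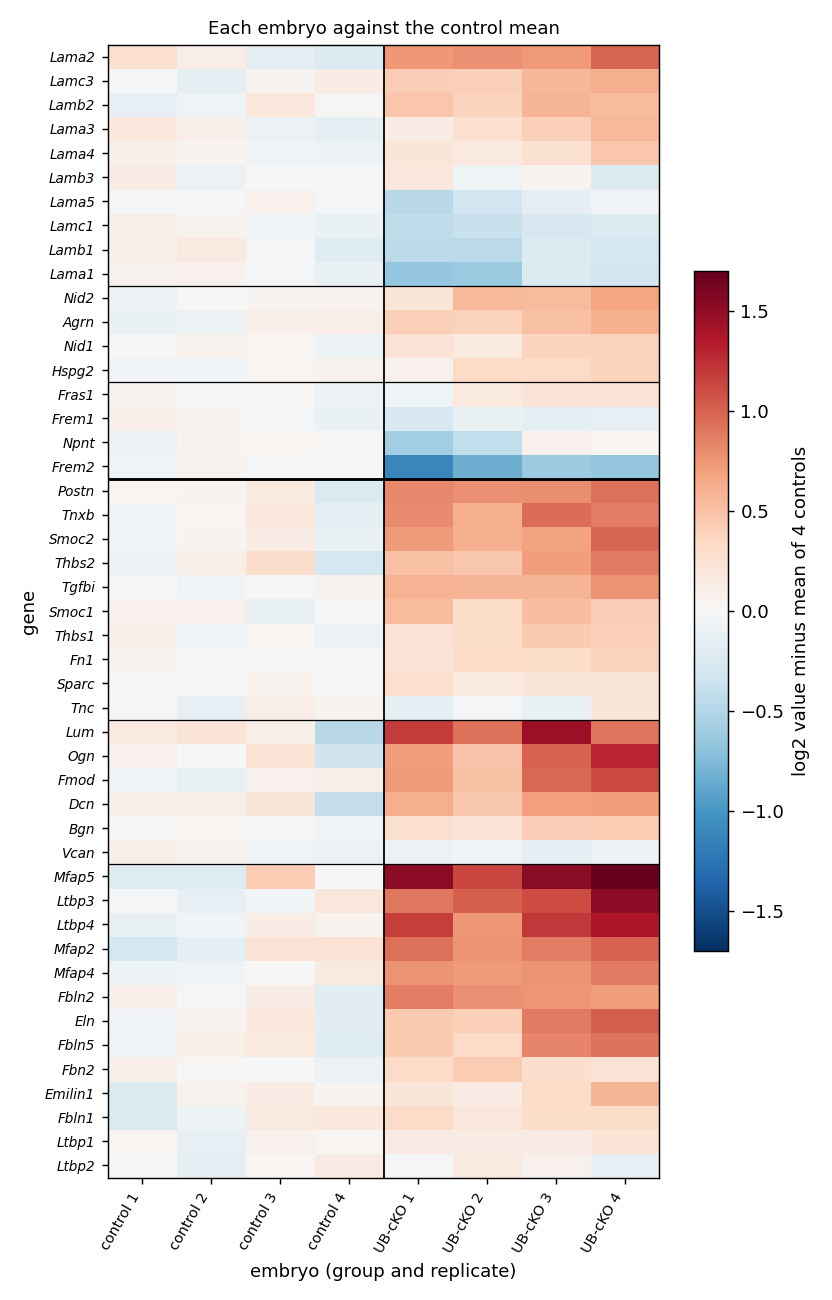
Heat map of the 47 matrix genes (rows, in 6 role groups divided by lines) in the 8 embryos (columns), coloured by log2 value minus the mean of the 4 controls. Interstitial rows are red across all 4 Grb2 UB-cKO columns apart from Tnc, Vcan and the weakly moving genes, whereas basement membrane rows hold both colours, with Frem2, Lama1, Lamb1 and Lamc1 blue.

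Sex and genotype were only partly separable, and the calls thinned when sex was taken into account. With the Y-linked covariate 12 of the 36 called members passed: Lama2, Frem2, Tnxb, Postn, Tgfbi, Smoc1, Smoc2, Fbln2, Mfap4, Mfap5, Ltbp3 and Ltbp4. All 36 kept their sign, and 5.62% of all genes passed in that fit (2.85% higher and 2.76% lower). The 12 comprise 2 of 13 called basement membrane genes and 10 of 23 called interstitial genes. The median SE of the members grew from 0.09 to 0.15 in that fit. Against control replicate 3 alone, with the spread pooled over the other embryos, the same 12 genes passed, and 6.18% of all genes did (3.15% higher and 3.03% lower). Both fits rest on that 1 control, so the second adds no independent support.

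**Figure D5:**
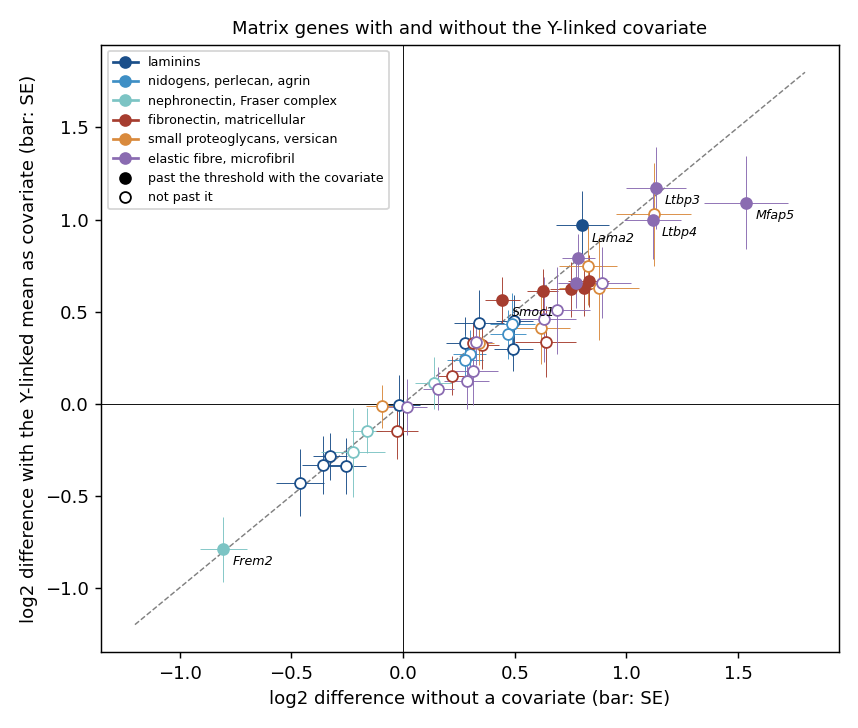
Log2 difference (Grb2 UB-cKO minus control) of the 47 matrix genes without (x axis) and with (y axis) the Y-linked mean as covariate, with bars for the SE, colours for the role groups, filled points past the threshold with the covariate, and a dashed line of equality. The 12 filled points include Frem2 at -0.79 and Mfap5 at 1.09, and the bars are longer on the y axis.

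Among other genes of the matrix, its receptors and its cross-linking enzymes, more rose than fell, and most did not pass. Of 66 measured of a list of 70, 23 were higher (34.8%), 4 were lower (6.06%) and 39 did not pass, with a median of 0.18. The shares over all genes were 13.7% higher and 14.3% lower. Itga8, the mesenchymal integrin subunit that binds nephronectin, read 10.98, 10.90, 10.99 and 10.79 in the controls and 10.002, 10.12, 9.95 and 9.69 in Grb2 UB-cKO; it fell by 0.97 (SE 0.10, adjusted p = 0.000163; -1.05 and 0.0141 with the Y-linked covariate). Unlike its ligand Npnt, it was low in all 4 Grb2 UB-cKO embryos. The other genes that fell were Bcam, a laminin receptor, with Fbln7 and Has2, named because they complete the count. Bcam fell by 0.35 (adjusted p = 0.0173; -0.52 and 0.0627 with the covariate).

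Matrix glycoproteins had the smallest p among the genes of the other list that rose. Spon2 and Spon1, spondins, rose by 1.35 and 0.64 (adjusted p = 0.000145 and 0.000431), Matn2, a matrilin, by 1.17 (0.000161) and Thbs3, a thrombospondin, by 1.0 (0.000139). Sparcl1, a relative of Sparc, rose by 0.82 (adjusted p = 0.000221) and Ntn1, a netrin related to the laminins, by 0.69 (0.000267). Each of these 6 genes passed with the Y-linked covariate. The cross-linking enzymes Lox and Loxl3, which join elastin and collagen chains, rose by 0.96 and 0.98 (adjusted p = 0.000772 and 0.000405), and with the covariate by 0.71 and 0.76 (0.0802 and 0.0479), so that Lox lost its call. Dag1, the laminin receptor dystroglycan, differed by 0.10 (adjusted p = 0.324). The collagen IV chains of the embryonic basement membrane did not pass, with Col4a1 at -0.30 (adjusted p = 0.0517) and Col4a2 at 0.06 (0.684).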

How the data were processed

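Total RNA (200 ng per sample) from 8 kidney pairs (E14.5) was hybridised to 1 array each. The deposited log2 probe-set values (41345 probe sets, array medians 6.61 to 6.72) were used as the authors gave them. The submitters' processing notes name Transcriptome Analysis Console with no version; background correction, summarization and normalization were not given in the sources used here. Probe sets were named from the platform annotation (23521 with 1 gene symbol, 1814 with several, 16010 with none), and symbols were updated through Entrez IDs to RefSeq (GRCm38.p6; 23328 matched). Each gene took its probe set with the highest mean over the 8 arrays. All 22180 genes were fitted with limma 3.58.1 in R 4.3.3 (lmFit and eBayes, 4 against 4, no covariate), and adjusted p-values are Benjamini-Hochberg values over all of them. The number of arrays limits the precision. Arrays correlated at 0.992 to 0.996 among controls, 0.991 to 0.994 among Grb2 UB-cKO and 0.975 to 0.989 between groups, and no pair was identical.

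The members and all lists were chosen with earlier results of these data known, so no list was tested as a set. By rule, in each role group the up to 4 genes of smallest p were described in every embryo, and of the other matrix genes the 8 of smallest p with Itga8, Dag1 and Lox were named. Alternatives were the Y-linked mean as covariate, control replicate 3 as the only control, median centring, quantile normalization, array weights, averaged probe sets, the dimmest 25% of genes left out, trended and robust spread, other thresholds, and leaving out each embryo. The fit was tested on simulated data with known changes, in 20 draws with 200 changed genes each. It recovered 65.5% of log2 changes of 0.5 and 98.15% of changes of 1, with 9.8 false calls per draw. Far more genes passed in the measured data, so these shares need not carry over.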

Additional observations from a re-analysis of the deposited data

Results flagged for a closer look

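In 7 of 94 groups of 4 embryos, 1 embryo lay further from the rest than Dixon's 95% critical value allows; chance gives about 1 in 20, or 4.7 groups. Control replicate 3 was high for Lama5 (9.25, the others 9.15 to 9.16) and for Sparc (11.51, the others 11.42). Control replicate 4 was low for Lum (8.46, the others 9.03 to 9.14). Grb2 UB-cKO replicate 1 was low for Hspg2 (10.83, the others 11.09 to 11.13), and replicate 2 was low for Fbln1 (10.80, the others 10.91 to 10.92). Grb2 UB-cKO replicate 4 was high for Tgfbi (12.75, the others 12.56 to 12.57) and for Ltbp1 (10.66, the others 10.56).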

How the results depend on the processing

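Adjustment for sex moved the counts most. With the Y-linked covariate, and against control replicate 3 alone, the genes past the threshold went from 6227 to 1246 and 1370 of all genes, from 13 to 2 and 2 basement membrane members, from 23 to 10 and 10 interstitial members and from 27 to 9 and 10 other matrix genes. The interstitial median went from 0.63 to 0.51 in both, and Grb2 no longer passed (-0.40, adjusted p = 0.10, and -0.41, adjusted p = 0.0912). An adjusted p threshold of 0.01 left 3809 genes and 8 basement membrane members, and a further minimum of 1.5-fold at 0.05 left 1789 and 2. Under the other alternatives 34 to 39 members were called, and 31 to 35 when 1 embryo was left out, against 36; median centring gained Lama5 and Frem1 and lost Lama3, Lama4, Hspg2 and Sparc. Signs turned only in genes that did not pass: Lamb3 was 0.033 with array weights and -0.087 to 0.052 leaving out 1 embryo, Tnc -0.10 to 0.018 leaving out 1 embryo, and Col4a2 -0.0060 with medians centred. Ltbp2 was -0.020 with the covariate, -0.021 against control replicate 3, -0.049 with medians centred, -0.036 with quantile normalization, and -0.039 to 0.069 leaving out 1 embryo. The cause of these shifts was not tested. No paired analysis was possible because the labels give the embryos no shared replicate numbers. With 4 embryos a group, and 1 control whose Y-linked level matches the Grb2 UB-cKO embryos, the spread limits what can be called after adjustment for sex, and dim probe sets carry no detection call here.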

Other observations

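Of 5 small proteoglycan genes outside the described set, Prelp, Aspn and Kera rose and Omd (-0.11, adjusted p = 0.625) and Epyc (0.34, adjusted p = 0.125) did not pass; they were chosen after their values were seen. Prelp read 7.64, 7.78, 7.84 and 7.45 in the controls and 9.02, 8.36, 9.72 and 9.73 in Grb2 UB-cKO (1.53, adjusted p = 0.00242). Aspn, asporin, read 7.76, 7.09, 7.82 and 6.24 against 8.27, 8.12, 8.82 and 9.35 (1.41, adjusted p = 0.0163), with a wide spread among the controls. Kera, keratocan, rose by 0.97 (adjusted p = 0.00178). With the Y-linked covariate the differences were 1.37 for Prelp, 0.82 for Aspn and 0.95 for Kera, and none of these 3 passed (adjusted p = 0.116, 0.465 and 0.0815).

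Egfl6, which encodes a basement membrane protein with epidermal growth factor repeats, rose by 1.37 (adjusted p = 0.000755; 1.04 and 0.0768 with the covariate). Efemp1, a fibulin, divided the Grb2 UB-cKO embryos the other way from Npnt. It read 9.02, 8.85, 9.05 and 9.003 in the controls, 10.04 and 10.10 in Grb2 UB-cKO replicates 1 and 2, and 9.34 and 9.41 in replicates 3 and 4 (0.74, adjusted p = 0.00905; 0.67 and 0.214 with the covariate). These values were not tested as a split of the embryos.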
